A study of Mus musculus with 20 samples.

Results

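The 10 genes described here encode the myostatin, activin and follistatin axis. They are the ligands Mstn, Gdf11, Inhba and Inhbb, the extracellular proteins Fst, Fstl3 and Fstl1, and the receptors Acvr2a, Acvr2b and Acvr1b. They were taken by gene symbol from the 22660 rows of the count table, and each had 1 row. All 10 also passed the filter on low counts in each of the 5 comparisons, so no member dropped out because it was low in some group.

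The RNA came from whole plantaris muscle of 20 old male C57BL/6J mice, aged 2 years by the labels, with 5 different mice in each of 4 groups. The plantaris was overloaded for 14 days by bilateral synergist ablation, in which part of the soleus and gastrocnemius is cut away (mechanical overload, MOV), or the leg had a sham operation. Mice received by gavage either vehicle (a PEG 400 solution) or the senolytic pair dasatinib at 5 mg/kg and quercetin at 50 mg/kg (D + Q), which is intended to clear senescent cells. Each treatment was thus combined with each operation, and every group was old and carried no engineered allele. Gavage was on days 7 and 10 in sham and MOV mice alike by the methods, whereas the series text places the second gavage of sham mice on day 14. The comparisons ask how overload moved the axis in old muscle and whether D + Q altered it at rest or under overload.

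Myostatin is made mainly by muscle fibres and restrains their growth, and GDF11 is its closest relative. The subunits encoded by Inhba and Inhbb pair to form activins, which also limit muscle mass. These ligands bind a type II receptor, encoded by Acvr2a or Acvr2b, which then activates a type I receptor such as the product of Acvr1b, and the signal reaches the nucleus through SMAD2 and SMAD3. Follistatin (Fst) and its relative FSTL3 wrap around the ligands and keep them from their receptors, whereas FSTL1 is a secreted glycoprotein of mesenchymal cells that carries the same kind of domain. Inactive precursors are cut by furin-like convertases before the ligands can act. Proteases of the BMP1 and tolloid family can then free myostatin from its propeptide.

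The sequences just upstream of Mstn and Fst are shown because these genes, a growth-limiting ligand and its inhibitor, moved in opposite directions under MOV. Each is the 250 bases before the transcription start of the canonical GENCODE vM39 transcript, 5′ to 3′ on the gene's own strand in the GRCm39 genome, with E-boxes (CANNTG) and SMAD boxes (CAGAC, either strand) in capitals. The Mstn window is chr1:53100549-53100798 on the plus strand and the Fst window is chr13:114595522-114595771 on the minus strand.
Mstn: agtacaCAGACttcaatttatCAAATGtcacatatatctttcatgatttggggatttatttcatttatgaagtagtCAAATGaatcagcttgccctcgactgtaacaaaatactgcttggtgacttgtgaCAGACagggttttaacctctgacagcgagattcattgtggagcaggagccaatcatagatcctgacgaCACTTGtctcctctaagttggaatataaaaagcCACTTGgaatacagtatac
Fst: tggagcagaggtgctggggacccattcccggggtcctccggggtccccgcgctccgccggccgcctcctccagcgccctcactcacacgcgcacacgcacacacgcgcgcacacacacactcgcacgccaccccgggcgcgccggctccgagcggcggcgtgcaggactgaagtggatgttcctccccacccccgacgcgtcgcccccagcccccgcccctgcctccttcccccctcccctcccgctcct
In the Mstn window 4 E-boxes began 229, 174, 52 and 19 bases before the start, 2 SMAD boxes began 244 and 120 bases before it, and a TATA box (TATAAA) began 29 bases before it. The Fst window held none of these letters, and its GC content was 75.6% against 38.4% for Mstn. Among 21757 windows of the same length, 64.8% held an E-box, 41.4% a SMAD box and 11.9% a TATA box, so the first 2 motifs are common. A FoxO element (GTAAACA, in 2.72% of windows) was in none of the 10 members' windows, and a MEF2 element (in 3.31%) was in those of Inhba and Acvr2b. In the Fstl3 window an E-box that began 154 bases before the start shared its last base with a SMAD box that began 149 bases before it. These matches describe letters only.

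Libraries held 17887532 to 26234518 counts. The 10 most abundant genes took 23.2% to 24.2% of the counts in sham muscle and 16.0% to 18.9% in MOV muscle, and the trimmed mean of M-values (TMM) factors that correct for this lay between 0.829 and 0.886 in sham and between 1.06 and 1.24 in MOV. Levels are given as CPM, counts scaled to a common library size with these factors. Sham and MOV mice separated on the first principal component, which held 69.2% of the variance. Vehicle MOV mouse 2 lay at 36.2 on it, below the 58.2 to 83.3 of the other MOV mice. D + Q sham mouse 2 lay at -47.9, the highest sham value. Fold changes of Fstl1, and the Inhba difference between D + Q and vehicle in MOV, are also given without the mouse concerned. Summed CPM of 10 adult fibre markers ran from 172000 to 206000 in sham mice and from 95100 to 127000 in MOV mice. The sum of 8 fibroblast markers lay between 276 and 974 CPM in sham mice and between 5780 and 14300 CPM in MOV mice. For 8 macrophage markers the ranges were 52.7 to 141 and 241 to 724 CPM, and for 6 markers of developing fibres 24.0 to 40.2 and 304 to 762 CPM. Sums for 6 satellite cell markers (22.9 to 35.2 and 43.3 to 55.3 CPM) and 5 tendon cell markers (48.6 to 68.4 and 528 to 945 CPM) did not overlap between operations either. Those for endothelial cells, smooth muscle cells or pericytes, lymphocytes, Schwann cells, adipocytes and red blood cells did overlap. In whole muscle, fewer cells of a type and less RNA per cell cannot be told apart, and this holds for every value that follows.

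MOV moved most of the axis in vehicle-treated muscle. Fst, Fstl3, Fstl1 and Inhba were higher, the receptors and Mstn lower, and Gdf11 and Inhbb did not pass the test. Of the 10 members, 4 were higher and 4 lower at an adjusted p under 0.05 (edgeR quasi-likelihood test, Benjamini-Hochberg adjusted over all genes), and 7 had no overlap between the 5 MOV and 5 sham mice. Over all 14601 genes tested, 60.5% passed, 30.7% higher and 29.8% lower, and 46.6% did not overlap, so members that passed are not unusual in this comparison. The median log2 fold change was 0.38 for the members and -0.02 for all genes tested.

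Mstn, the myostatin gene (chromosome 1, 53100799 to 53107240), had 82.0, 52.8, 69.2, 80.0 and 73.3 CPM in the 5 vehicle sham mice and 23.6, 17.0, 25.6, 22.1 and 24.5 CPM in the 5 vehicle MOV mice. Every MOV mouse was below every sham mouse. The level was 3.14 times lower under MOV (95% interval 2.59 to 3.81, log2 fold change -1.65, SE 0.129, edgeR adjusted p = 2.15e-07, 2-sided exact permutation p = 0.00794, the smallest that 5 mice against 5 allow). With D + Q the sham mice had 69.1, 74.5, 80.4, 97.5 and 80.4 CPM and the MOV mice 24.7, 26.0, 21.6, 29.4 and 23.8 CPM. The groups again did not overlap, and the fall was by 1.63 on the log2 scale (SE 0.0953, edgeR adjusted p = 9.13e-10).

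The summed CPM of the adult fibre markers also fell with MOV, so the Mstn level was set beside it. The markers were Acta1, Ckm, Mylpf, Tnnt3, Tnni2, Atp2a1, Pvalb, Actn3, Myh4 and Myh1. They include fast myosin genes and no slow myosin gene, so the sum does not stand for all adult fibres. The authors report a shift from glycolytic to oxidative fibres with MOV in these old mice. Of the 10 markers, 7 passed as lower with vehicle and 8 with D + Q, against 29.8% and 30.9% of all genes. None passed as higher, but 2 had a positive log2 fold change in each treatment. Per 1000 CPM of the 10 adult fibre markers, Mstn CPM was 0.413, 0.307, 0.371, 0.432 and 0.402 in vehicle sham mice and 0.207, 0.133, 0.244, 0.233 and 0.208 in vehicle MOV mice. The groups did not overlap on this measure either, nor did D + Q sham (0.373 to 0.473) and D + Q MOV (0.215 to 0.255). The same quotient for Acvr1b overlapped between vehicle sham (0.256 to 0.375) and vehicle MOV (0.243 to 0.32). For Acvr2b the quotient was 0.0477 to 0.0653 in vehicle sham and 0.0341 to 0.0432 in vehicle MOV mice, without overlap, but with D + Q the groups overlapped. The parts of fibre content and of fibre type in these differences were not tested.

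Gdf11, which encodes the ligand closest to myostatin (chromosome 10, 128718164 to 128727747), had 19.0, 5.29, 15.3, 16.9 and 17.9 CPM in vehicle sham and 13.2, 19.0, 19.8, 16.0 and 14.3 CPM in vehicle MOV mice. The groups overlapped widely, and vehicle sham mouse 2 lay far below its group. The log2 fold change was 0.15 (95% interval -0.47 to 0.78, edgeR adjusted p = 0.662). With D + Q it was 0.31 (SE 0.107, edgeR adjusted p = 0.018), but the exact permutation p was 0.0873. The mice overlapped, 12.8 to 19.2 CPM in sham and 15.6 to 22.0 CPM in MOV. Without D + Q sham mouse 1 the value was 0.23 (edgeR adjusted p = 0.0523). Of the 31-base exon words of Gdf11, 10.0% occur in another gene, as in the opposite-strand gene Sarnp.

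Inhba, which encodes the activin A subunit (chromosome 13, 16186373 to 16206206), was among the least abundant members. Its values were 1.61, 0.518, 1.61, 0.815 and 0.589 CPM in vehicle sham and 3.29, 1.81, 3.01, 2.71 and 4.26 CPM in vehicle MOV mice, from 9 to 35 and from 35 to 101 counts per library. No mouse of either group overlapped the other. Inhba rose 2.94-fold (95% interval 1.79 to 4.82, log2 fold change 1.56, SE 0.335, edgeR adjusted p = 9.2e-04). With D + Q the sham mice had 1.21, 2.13, 1.17, 0.874 and 1.37 CPM and the MOV mice 5.63, 5.42, 4.27, 3.66 and 5.31 CPM, a rise of 3.76-fold (95% interval 2.73 to 5.17, edgeR adjusted p = 5.84e-07). These groups did not overlap. Per 1000 CPM of the fibroblast markers, Inhba CPM went the other way, from 1.63 to 5.83 in vehicle sham mice to 0.235 to 0.441 in vehicle MOV mice, so the marker sum rose further than Inhba did.

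Inhbb, the gene of the activin B subunit (chromosome 1, 119343193 to 119350021), lay at 0.873 to 2.41 CPM in vehicle sham, 0.941 to 2.97 CPM in vehicle MOV, 1.75 to 2.99 CPM in D + Q sham and 1.95 to 3.46 CPM in D + Q MOV. All 4 ranges overlapped. The log2 fold change under MOV was 0.60 with vehicle (95% interval -0.13 to 1.32, edgeR adjusted p = 0.142) and 0.37 with D + Q (95% interval -0.08 to 0.82, edgeR adjusted p = 0.142). Scaling by total counts, or omitting vehicle MOV mouse 3 or vehicle sham mouse 5, brought the vehicle value past the threshold at 0.98, 0.80 and 0.87.

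**Figure D1:**
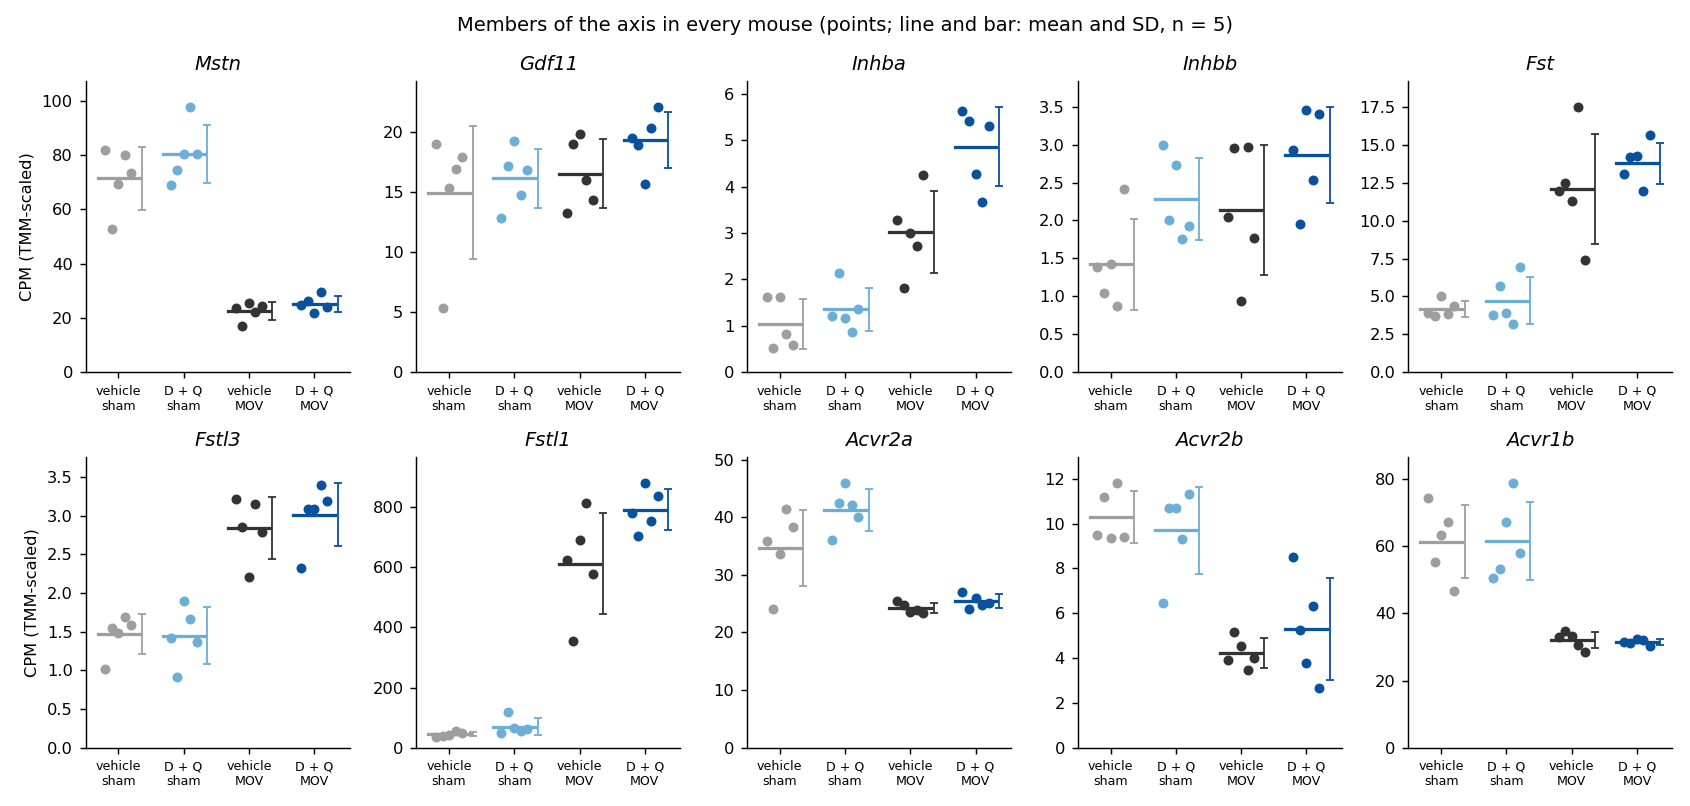
Level of the 10 members (y axis, CPM after TMM scaling, each panel from 0) in every mouse of the 4 groups (x axis), with points for mice and a line and bar for mean and SD (n = 5). Mstn and Acvr1b of MOV mice sit below all sham mice, Fst, Fstl3, Fstl1 and Inhba of MOV mice above them within each treatment, and the Gdf11 and Inhbb panels overlap.

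Fst, Fstl3 and Fstl1 rose together under MOV in both treatments. Fst, the follistatin gene (chromosome 13, 114588731 to 114595521), had 3.91, 3.68, 5.03, 3.84 and 4.36 CPM in vehicle sham and 12.0, 12.5, 11.3, 17.5 and 7.39 CPM in vehicle MOV mice. All MOV mice were above all sham mice, and vehicle MOV mouse 5 was the lowest of its group. The increase was 2.95-fold (95% interval 2.21 to 3.93, log2 fold change 1.56, SE 0.194, edgeR adjusted p = 7.82e-06). With D + Q the values were 3.78, 5.72, 3.90, 3.20 and 6.92 CPM in sham and 13.1, 14.2, 14.3, 12.0 and 15.7 CPM in MOV mice, an increase of 3.05-fold (95% interval 2.37 to 3.93, edgeR adjusted p = 5.94e-07). Per 1000 CPM of the developing-fibre markers Fst CPM was 125 to 160 in vehicle sham and 20.5 to 33.7 in vehicle MOV mice, and per 1000 CPM of 6 satellite cell markers it was 109 to 161 and 145 to 394. The part of either cell type in the Fst level was not tested.

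Fstl3, whose product binds activins and myostatin as follistatin does (chromosome 10, 79613096 to 79618464), went from 1.02 to 1.69 CPM in vehicle sham to 2.21 to 3.21 CPM in vehicle MOV mice, with no overlap. The log2 fold change was 0.97 (SE 0.213, edgeR adjusted p = 1.03e-03), and with D + Q it was 1.09 (SE 0.212, edgeR adjusted p = 2.17e-04). By shared sequence this gene is the least certain of the 10 to count. In GENCODE vM39, 46.5% of its 31-base exon words also occur in another gene, chiefly Prss57 on the opposite strand. Whether counting used strand is not given in the sources used here.

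Fstl1, a gene of mesenchymal cells (chromosome 16, 37597105 to 37656876), showed the widest change of the 10 members. Vehicle sham mice had 36.9, 39.9, 43.2, 54.8 and 48.0 CPM and vehicle MOV mice had 625, 354, 690, 812 and 578 CPM. The increase was 13.9-fold (95% interval 9.97 to 19.3, log2 fold change 3.79, SE 0.216, edgeR adjusted p = 9.38e-08), and without vehicle MOV mouse 2 the log2 fold change was 3.96. With D + Q the sham mice had 47.8, 119, 66.7, 55.9 and 62.3 CPM and the MOV mice 780, 704, 879, 755 and 838 CPM, an increase of 11.6-fold (95% interval 7.83 to 17.3, edgeR adjusted p = 1.44e-06), or 3.81 on the log2 scale without D + Q sham mouse 2 against 3.54 with it.

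The mice that were low or high for Fstl1 were so for the 8 fibroblast markers too. Vehicle MOV mouse 2 had the lowest marker sum of all MOV mice, 5780 CPM against 8790 to 14300 CPM in the others, and D + Q sham mouse 2 the highest of all sham mice, 974 CPM against 276 to 513 CPM. Per 1000 CPM of these markers, Fstl1 CPM was 125 to 157 in vehicle sham, 110 to 152 in D + Q sham, 59.8 to 71.2 in vehicle MOV and 61.6 to 68.7 in D + Q MOV mice, so the marker sum rose more than Fstl1 did. How far fibroblast content accounts for the Fstl1 level was not tested.

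**Figure D2:**
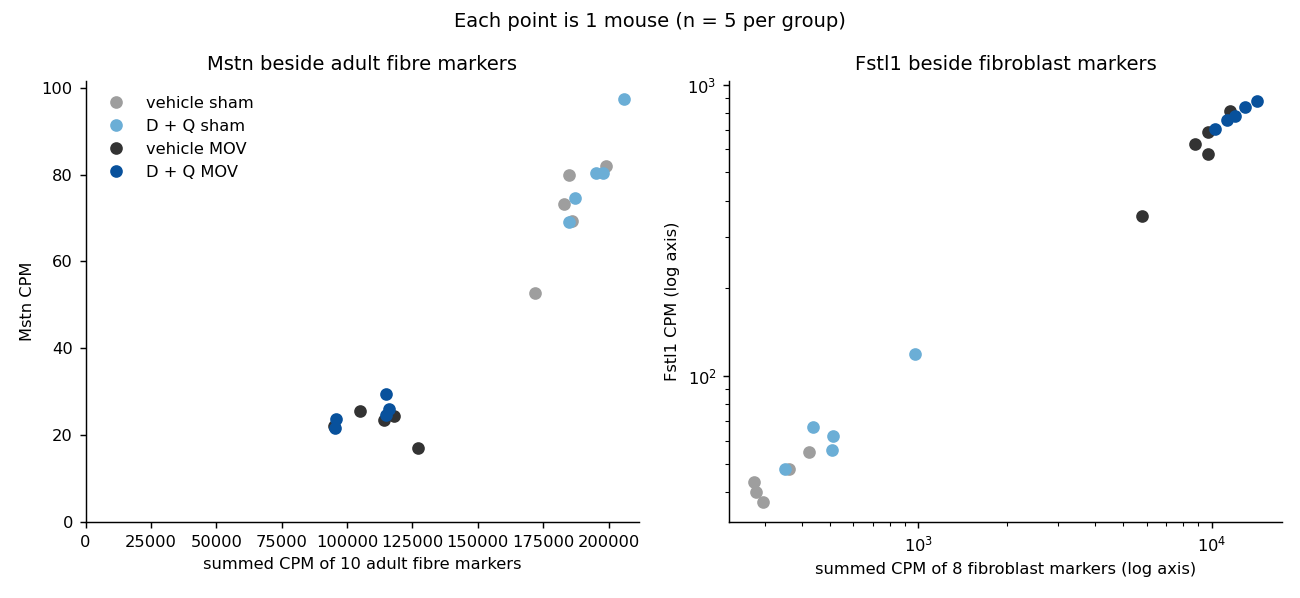
Left, Mstn CPM (y axis) beside the summed CPM of 10 adult fibre markers (x axis); right, Fstl1 CPM beside the summed CPM of 8 fibroblast markers. Axes are linear and from 0 on the left and log on the right. Each point is 1 mouse (n = 5 per group), and vehicle MOV mouse 2 is the lowest MOV point on both right-hand axes, at 5780 and 354 CPM.

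All 3 receptor genes were lower under MOV with either treatment. Acvr2b, a type II receptor for myostatin and activins (chromosome 9, 119231103 to 119271213), had 9.48, 11.2, 9.35, 11.8 and 9.42 CPM in vehicle sham and 3.93, 5.18, 4.52, 3.45 and 4.01 CPM in vehicle MOV mice. These groups did not overlap, and the level was 2.41 times lower (95% interval 1.98 to 2.95, edgeR adjusted p = 1.46e-06). With D + Q the sham mice had 6.46, 10.7, 10.7, 9.32 and 11.3 CPM and the MOV mice 8.52, 5.23, 3.76, 6.34 and 2.65 CPM. D + Q MOV mouse 1 lay above D + Q sham mouse 1, so the groups overlapped, and the fall by 0.82 on the log2 scale (SE 0.276, edgeR adjusted p = 0.0223) did not pass without D + Q MOV mouse 2 (adjusted p = 0.0526), without D + Q MOV mouse 3 (adjusted p = 0.055) or with scaling by total counts (log2 fold change -0.46, adjusted p = 0.141). Of the 31-base words of Acvr2b, 12.2% occur elsewhere, as in the opposite-strand gene 4930516B21Rik.

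Acvr1b, the type I receptor gene (chromosome 15, 101071921 to 101111565), fell from 46.7 to 74.5 CPM in vehicle sham to 28.6 to 34.9 CPM in vehicle MOV mice, without overlap. It was 1.90 times lower with vehicle (95% interval 1.62 to 2.23, edgeR adjusted p = 4.67e-06) and 1.89 times lower with D + Q (95% interval 1.63 to 2.20, edgeR adjusted p = 1.51e-06). The MOV mice were closer together than the sham mice, with an SD of 2.51 CPM against 10.8 CPM with vehicle and 0.86 CPM against 11.5 CPM with D + Q.

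Acvr2a, the other type II receptor gene (chromosome 2, 48703743 to 48793283), went from 24.1 to 41.5 CPM in vehicle sham to 23.3 to 25.4 CPM in vehicle MOV mice. The ranges met only at vehicle sham mouse 2, whose 24.1 CPM was the lowest of its group. The log2 fold change was -0.51 (SE 0.114, edgeR adjusted p = 1.35e-03) with vehicle and -0.65 (SE 0.0682, edgeR adjusted p = 1.78e-07) with D + Q, where the groups did not overlap. Of its 31-base words 30.9% occur in another gene, as in the opposite-strand gene Orc4.

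With D + Q, 5 members were higher and 4 lower under MOV and 7 did not overlap, where over 14913 genes tested 65.3% passed, 34.4% higher and 30.9% lower, and 53.2% did not overlap. The members' median log2 fold change was 0.34 against 0.02 for all genes. Scaling by total counts moved the median of all genes under MOV to 0.36 with vehicle and 0.39 with D + Q, and turned the calls from 4482 higher and 4349 lower into 7683 higher and 1453 lower with vehicle, and from 5129 and 4614 into 8392 and 1654 with D + Q. On that scale Fst, Fstl3, Fstl1 and Inhba were still higher, and Mstn and Acvr1b still lower, in both treatments. Acvr2a with vehicle no longer passed (log2 fold change -0.13, edgeR adjusted p = 0.361), and Inhbb passed in both treatments.

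**Figure D3:**
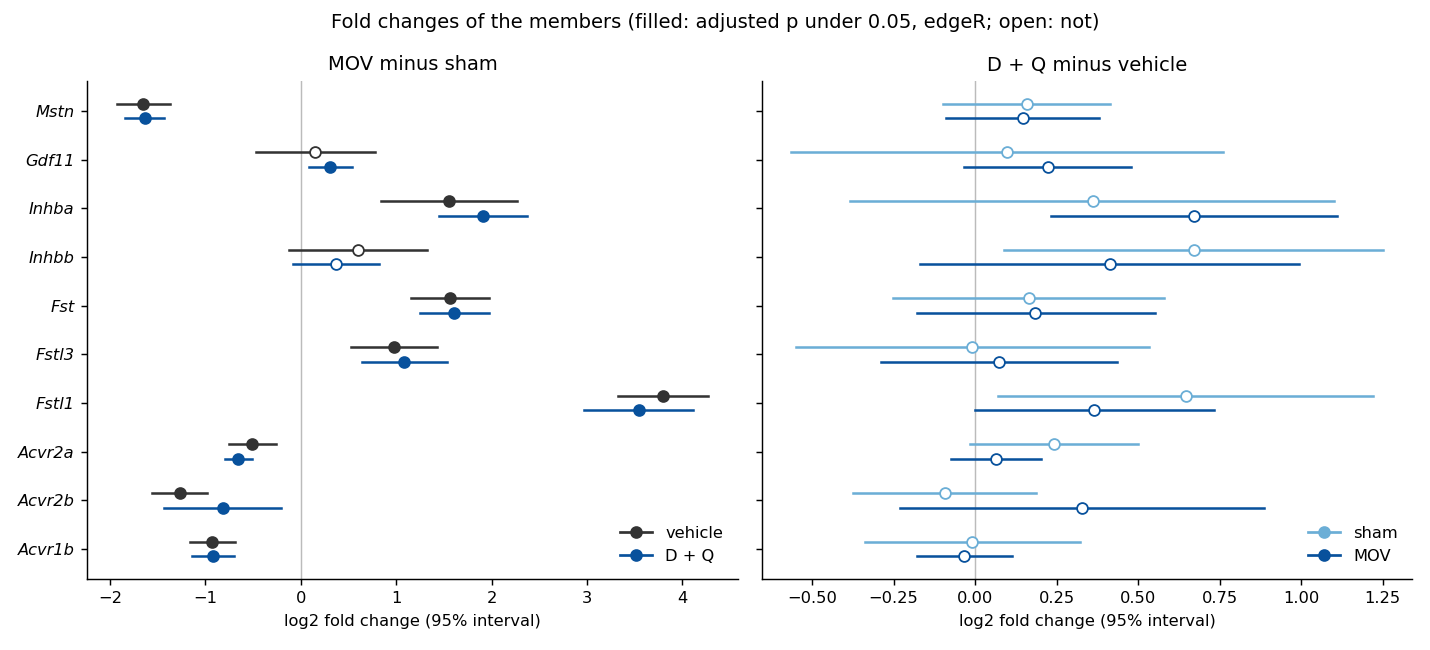
Log2 fold change (x axis, point) with its 95% interval (line) for the 10 members (y axis), filled where the edgeR adjusted p was under 0.05. Left, MOV minus sham with vehicle (black) and D + Q (blue). Right, D + Q minus vehicle in sham (light blue) and MOV (blue), where no point is filled. There 7 of 10 sham points and 9 of 10 MOV points lie above 0.

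Ratios within a library do not depend on the scaling. Fst per Mstn, each per kilobase of exon, was 0.0274, 0.0400, 0.0417, 0.0276 and 0.0341 in vehicle sham and 0.291, 0.423, 0.254, 0.455 and 0.173 in vehicle MOV mice. The ratio of the inhibitor to the ligand was higher in every vehicle MOV mouse than in every vehicle sham mouse. This had to follow, because Fst was higher and Mstn lower without overlap, so it is not a separate result. With D + Q it lay between 0.0189 and 0.0494 in sham and between 0.235 and 0.381 in MOV. Inhba per Mstn showed the same lack of overlap, again fixed by the levels of each gene. It went from 0.00305 to 0.00886 in vehicle sham to 0.0406 to 0.0663 in vehicle MOV. The D + Q ranges were 0.00341 to 0.0109 in sham and 0.0473 to 0.0869 in MOV. Mstn per Gdf11 went the other way, from a median of 7.04 in vehicle sham and 7.49 in D + Q sham to 2.16 and 2.14 in the MOV groups. Fst per Inhba, by contrast, overlapped between vehicle sham (3.66 to 11.2) and vehicle MOV (2.61 to 10.4), since both genes rose.

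Per kilobase of exon, the ligand gene Mstn was the most abundant member of sham muscle, at 26.4 ± 4.3 CPM per kilobase (SD, n = 5) with vehicle. Acvr1b followed at 12.9 ± 2.27, Fstl1 at 4.42 ± 0.698, Gdf11 at 3.53 ± 1.31 and Acvr2a at 3.44 ± 0.655 CPM per kilobase, the last 3 with overlapping mice. Acvr2b (0.917), Fst (0.883), Fstl3 (0.597), Inhbb (0.331) and Inhba (0.145) lay lower, and in this stretch only Fst and Fstl3 did not overlap as neighbours. In vehicle MOV muscle Fstl1 led at 60.7 ± 16.7, Mstn was second at 8.33 ± 1.24 and overlapped Acvr1b at 6.75 ± 0.527, and Acvr2b was last at 0.377 ± 0.0588 CPM per kilobase. D + Q kept Fstl1 first (78.4 ± 6.8) and Mstn second (9.27 ± 1.08) in MOV, and Mstn first (29.7 ± 3.94) in sham. Per kilobase of its longest transcript Fstl1 was at 10.2 in vehicle sham and 139 in vehicle MOV, and it kept its place in both. In D + Q sham its place depended on the length used: at 6.98 per kilobase of exon Fstl1 ranked below Acvr1b, but at 16.1 per kilobase of the longest transcript it ranked above Acvr1b at 13.2.

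**Figure D4:**
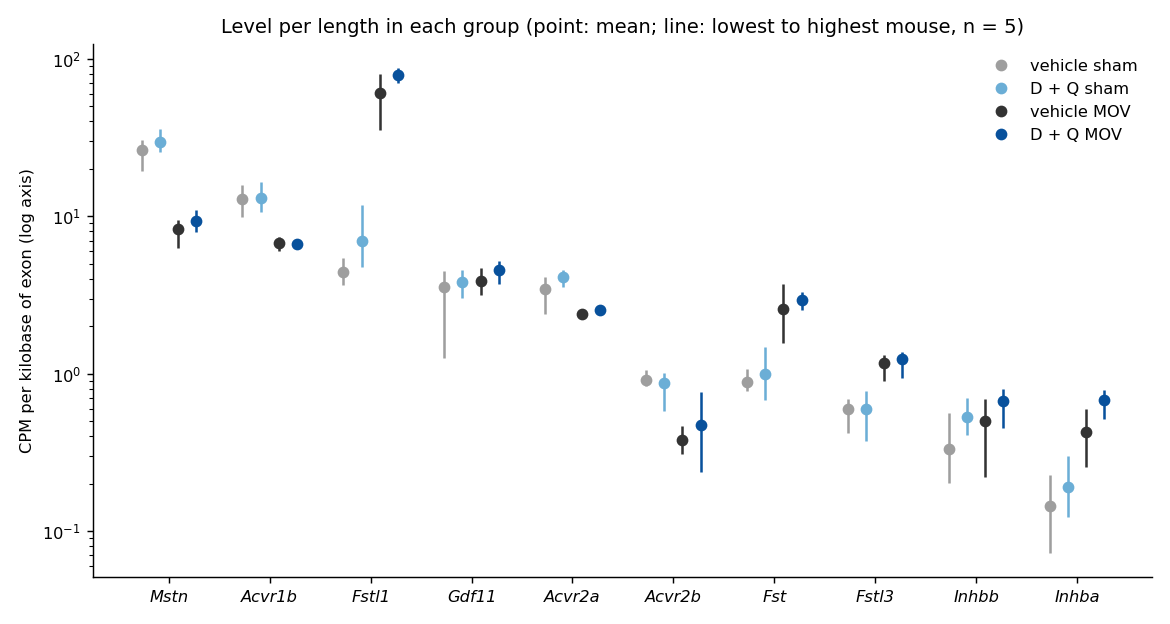
CPM per kilobase of exon (y axis, log scale) of the 10 members (x axis, ordered by vehicle sham level) in the 4 groups, with points for means and lines from the lowest to the highest mouse (n = 5). Mstn leads in sham muscle at 26.4 and 29.7, and Fstl1 leads in MOV muscle at 60.7 and 78.4.

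The other genes of the pathway were followed in 7 lists of 56 genes, of which 52 had a row. Their counts stand against 30.7% of all genes higher and 29.8% lower under MOV with vehicle, and 34.4% and 30.9% with D + Q, and lists with shares near these are not set apart from other genes. The lists were chosen with earlier results of these data known, so a share far from these is a description and no independent evidence. Of the common SMAD2/3 target genes that also passed the count filter in sham mice alone, 6 of 6 were higher with vehicle and with D + Q, with median log2 fold changes of 1.53 and 1.42. Ccn2, a matricellular growth factor, was among them (2.56 and 2.87). Ltbp2, a matrix protein related to latent TGF-β binding proteins, was tested only because it was high in MOV mice, and so had to differ: it had 0 to 6 counts per vehicle sham mouse and 136 to 265 per vehicle MOV mouse, and 4 to 13 and 158 to 407 with D + Q. Smad7, Skil and Pmepa1 in this list are feedback inhibitors of the same pathway. With vehicle, Smad7 (log2 fold change 0.35, edgeR adjusted p = 0.044) and Skil (0.68) overlapped between MOV and sham mice. The genes also respond to other signals, and markers of fibroblasts and macrophages rose in the same mice.

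Among the BMP-SMAD targets 3 of 5 were higher and none lower in both treatments. Id2 (log2 fold change 2.11 with vehicle and 2.04 with D + Q), Id3 (1.66 and 1.71) and Id1 (0.97 and 1.60), all inhibitors of basic helix-loop-helix factors, were those 3. Of 10 SMAD genes and regulators tested with vehicle, 4 were higher and 4 lower, and with D + Q 6 and 4. Zfyve9, which anchors SMAD2 and SMAD3 near receptors, fell (-1.06 and -0.98), as did Smad3 (-0.69 and -0.57), whereas Smad1, a SMAD of the BMP branch, rose (0.92 and 1.00). With scaling by total counts Smad3 no longer passed with vehicle (log2 fold change -0.31).

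Of 5 ligand-processing proteases that also passed the count filter in sham mice alone, 2 were higher with vehicle and 3 with D + Q, and none was lower. Pcsk5, a furin-like convertase, had 0.58 to 1.50 CPM in vehicle sham and 8.35 to 17.3 CPM in vehicle MOV mice (log2 fold change 3.52, and 3.68 with D + Q). Bmp1 (2.36 and 2.50) encodes a metalloprotease of the tolloid family, which can free myostatin from its propeptide. Its relative Tll1 was tested only through the MOV mice, with 0 to 7 counts per vehicle sham mouse and 30 to 49 per vehicle MOV mouse. Inha, the inhibin α subunit, rose by 0.75 with vehicle and by 0.49 with D + Q, where it did not pass without D + Q MOV mouse 1, D + Q MOV mouse 3 or D + Q sham mouse 4 (adjusted p = 0.0577, 0.0699 and 0.055). Gdf3, the only other ligand tested, also entered only through MOV mice: it had 0 to 1 counts per vehicle sham and 4 to 21 per vehicle MOV mouse, and 0 to 2 and 10 to 28 with D + Q. Between D + Q MOV and vehicle MOV it differed by 0.03 on the log2 scale (95% interval -0.82 to 0.88).

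Of 9 other extracellular inhibitors and binders tested, 6 were higher and 2 lower in both treatments. Wfikkn2, a secreted protein that binds myostatin and GDF11, went against most of them: 20.4, 17.0, 20.0, 17.8 and 19.5 CPM in vehicle sham mice and 8.23, 7.62, 9.79, 5.60 and 5.74 CPM in vehicle MOV mice. It fell by 1.35 on the log2 scale with vehicle and by 1.20 with D + Q (edgeR adjusted p = 1.23e-06 and 6.69e-09). Fmod, the collagen-binding proteoglycan fibromodulin (1.66 with vehicle and 1.67 with D + Q), Bambi, a decoy receptor (1.15 and 1.06), and Dcn, the proteoglycan decorin (0.95 and 1.08), rose.

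Of 5 other receptors tested 1 was higher and 3 lower in both treatments. The BMP receptors Bmpr1b (-1.01 with vehicle and -0.93 with D + Q), Bmpr1a (-0.75 and -0.41) and Bmpr2 (-0.39 and -0.42) were those 3. With scaling by total counts Bmpr2 no longer passed in either treatment (-0.02 and -0.05) and Bmpr1a no longer passed with D + Q (-0.05).

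**Figure D5:**
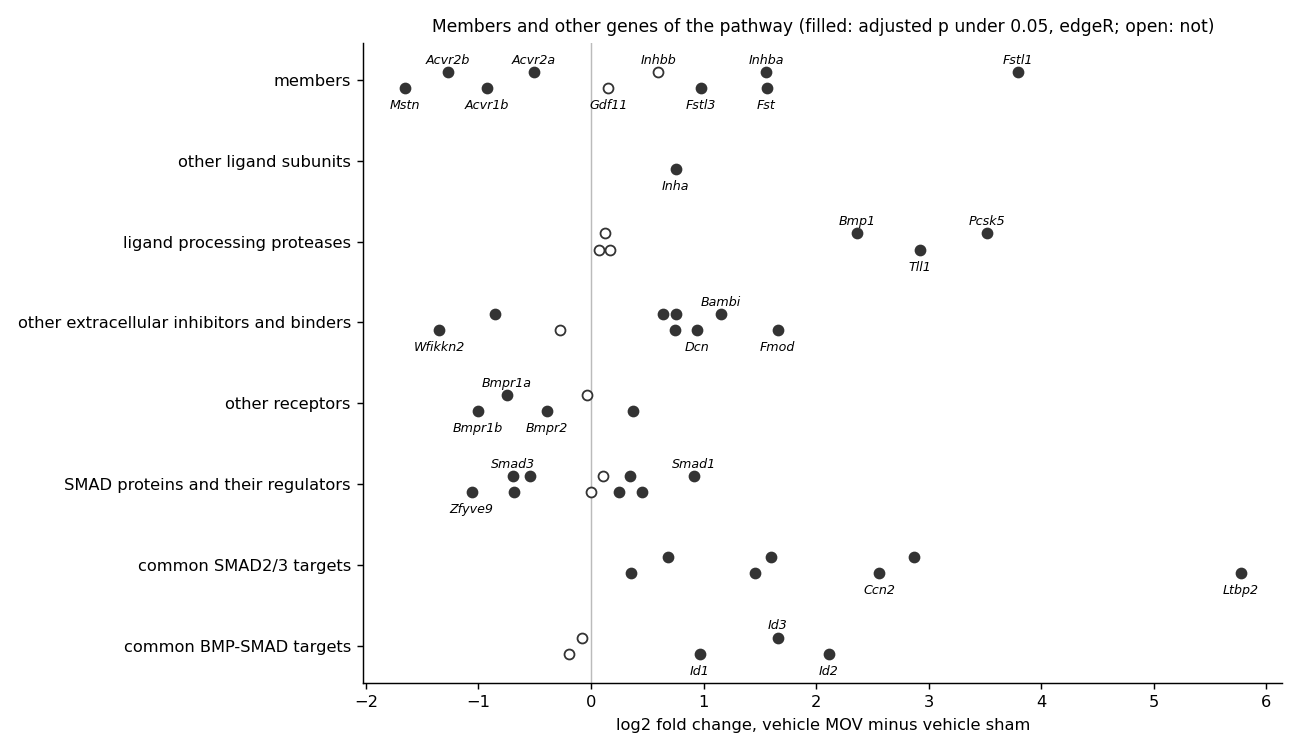
Log2 fold change of vehicle MOV minus vehicle sham (x axis) for the 10 members and the genes tested in each of the 7 pathway lists (y axis), 1 point per gene, filled where the edgeR adjusted p was under 0.05. The 6 SMAD2/3 targets that also passed the count filter in sham mice alone lie to the right of 0. Ltbp2, the furthest right and near 0 counts in vehicle sham mice, and Tll1 were tested only through MOV mice, so their side was fixed. The receptors lie mostly to the left.

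D + Q did not change any member past the threshold in MOV muscle. Here 0 of 10 members and 0 of 15238 genes (0.0%) passed with edgeR, against 11 genes with DESeq2. With edgeR 1 member and 8.79% of genes had an unadjusted p under 0.05. That member was Inhba: the D + Q MOV values of 5.63, 5.42, 4.27, 3.66 and 5.31 CPM lay above all vehicle MOV values but the 4.26 CPM of vehicle MOV mouse 5, which exceeded D + Q MOV mouse 4. The log2 difference was 0.67 (95% interval 0.23 to 1.11, unadjusted p = 5.47e-03, edgeR adjusted p = 0.523, exact permutation p = 0.0159), and 0.54 without vehicle MOV mouse 2. Fst, whose product binds activins, differed by 0.18 on the log2 scale (95% interval -0.18 to 0.55, edgeR adjusted p = 0.751).

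The other 9 members had an unadjusted edgeR p above 0.05. Mstn differed by 0.15 on the log2 scale (95% interval -0.09 to 0.38, edgeR adjusted p = 0.701), Acvr1b by -0.03 (-0.18 to 0.11) and Acvr2a by 0.06 (-0.08 to 0.20), so changes of more than about 1.30-fold for Mstn lie outside its interval. Fstl1 differed by 0.36 (95% interval -0.002 to 0.73, unadjusted p = 0.0511, edgeR adjusted p = 0.563, exact permutation p = 0.0476), and by 0.22 without vehicle MOV mouse 2. Its exact permutation p ran from 0.00794 to 0.119 when each mouse was omitted. All 8 fibroblast markers were positive, 4 of them at an unadjusted p under 0.05. This was not limited to fibroblasts: all 5 tendon cell and 7 of 8 macrophage markers were positive too. Only 2 of 8 endothelial and 1 of 6 developing-fibre markers were. These marker counts include vehicle MOV mouse 2, whose fibroblast marker sum was the lowest of the MOV mice, and are not given without it. Gdf11 (0.22), Inhbb (0.41), Fstl3 (0.07) and Acvr2b (0.33) had intervals that included 0. Inhbb was at 0.23 without vehicle MOV mouse 3, and Acvr2b at 0.089 without D + Q MOV mouse 1. In all, 9 of 10 members were positive, with a median of 0.20 against 0.00 for all genes, where 7696 of 15238 genes were positive. In sham muscle 7 of 10 were positive, with a median of 0.16. The members were measured in the same mice, so their signs are not independent of each other.

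In sham muscle D + Q changed no member past the threshold either, while 30 of 13926 genes passed (0.215%) and 10.2% had an unadjusted p under 0.05. Inhbb, at 2.99, 2.01, 2.73, 1.75 and 1.93 CPM with D + Q and 1.38, 1.04, 1.42, 0.873 and 2.41 CPM with vehicle, differed by 0.67 on the log2 scale (95% interval 0.09 to 1.25, unadjusted p = 0.0267, edgeR adjusted p = 0.424). Only vehicle sham mouse 5 overlapped the D + Q mice. The exact permutation p for Inhbb was 0.0397, and ran from 0.00794 to 0.0952 when each mouse was omitted. Fstl1 differed by 0.65 (95% interval 0.07 to 1.22, unadjusted p = 0.0323, edgeR adjusted p = 0.439, exact permutation p = 0.0238). Its exact permutation p ran from 0.00794 to 0.0635 when each mouse was omitted. The Fstl1 difference was 0.38 without D + Q sham mouse 2, whose fibroblast marker sum was the highest of the sham mice. The 8 fibroblast markers were all positive, 6 at an unadjusted p under 0.05, and these counts are given only with that mouse included. All 5 tendon cell markers, all 6 of smooth muscle cells or pericytes and 7 of 8 macrophage markers were positive as well. All 5 red blood cell markers were negative. Mstn differed by 0.16 (95% interval -0.10 to 0.41, edgeR adjusted p = 0.699) and Fst by 0.16 (-0.25 to 0.58).

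Among other genes of the pathway, none passed the adjusted threshold for D + Q in either surgery with edgeR and all mice. Fmod and Dcn, both small leucine-rich proteoglycans of the matrix, had unadjusted p under 0.05 in both: Fmod differed by 0.46 in sham (unadjusted p = 1.42e-03, edgeR adjusted p = 0.167) and 0.43 in MOV (2.86e-04 and 0.523), and Dcn by 0.31 in sham (0.0212 and 0.394) and 0.42 in MOV (0.0135 and 0.523). With DESeq2 Fmod passed in sham and in MOV (adjusted p = 0.0117 and 0.0275) and Ccn2 in sham (adjusted p = 0.0444). Fmod also passed in sham with edgeR without vehicle sham mouse 4 (0.55, adjusted p = 0.0357). In sham Tgfbr3, a co-receptor (0.33), Ccn2 (0.50), Bmpr1a (-0.17), Ltbp3 (0.18), Ski (0.18), Pmepa1 (0.40), Smad4 (0.14) and Tgfbi (0.35) also had an unadjusted p under 0.05, with edgeR adjusted p between 0.164 and 0.481. In MOV Smurf2, a ubiquitin ligase for SMADs (0.24), Skil (0.39) and Inha (-0.35) did so, with edgeR adjusted p between 0.523 and 0.56.

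Whether D + Q acted differently in MOV and sham was tested directly as an interaction over all 20 mice. None of the 10 members passed, nor did any reach an unadjusted p under 0.05, against 0.0127% and 5.71% of 15700 genes. The difference was 0.31 for Inhba (95% interval -0.53 to 1.16), 0.42 for Acvr2b (-0.22 to 1.05), -0.29 for Fstl1 (-0.96 to 0.38), 0.12 for Gdf11 (-0.55 to 0.79) and -0.02 for Mstn (-0.37 to 0.34). Ltbp2 (-1.59, unadjusted p = 0.0296, with few counts in sham mice) and Bmpr1a (0.30, unadjusted p = 5.52e-03) were the other pathway genes under 0.05, with edgeR adjusted p of 0.823 and 0.718, and Fmod (-0.03) and Dcn (0.10) were not. The comparisons of MOV with sham and of D + Q with vehicle share mice, so they are not independent of each other.

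Genes whose levels moved with a member from mouse to mouse were sought over 15699 genes, after removing each group's mean, as a description over 20 mice. For Mstn the closest were Gm37581, Gm38150, Cox6b2, Bpnt2 and Msrb3, with Pearson r between 0.79 and 0.812, and between 0.677 and 0.752 without vehicle sham mouse 2. For Inhba they were Stk39, a kinase (r = 0.864), Trio, Top2a, a topoisomerase of dividing cells, Ampd2 and Lurap1l (r = 0.75). For Fst they were Srgn, a proteoglycan of blood cell granules (r = 0.813), Cd209a, Itga9, Slco5a1 and Pilra, a myeloid receptor (r = 0.726). Among the members themselves Gdf11 and Acvr2a had the highest r, 0.809, but both were lowest in vehicle sham mouse 2 among vehicle sham mice, and without it r was 0.294. Mstn and Gdf11 went from 0.523 to 0.0856 in the same way, whereas the lowest r, between Inhba and Fstl3, was -0.576 with that mouse and -0.592 without it.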

How the data were processed

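Total RNA of plantaris muscle (20 mice, 5 in each of 4 groups) was sequenced by the authors, who aligned reads to GRCm39 with STAR 2.7.8a and quantified genes with the expectation-maximization quantifier of Partek Flow. The authors deposited estimated counts per gene and mouse, not scaled, and 28.8% of the values were not whole. Every row summed to at least 10 counts over the mice. Whether counting used strand is not given in the sources used here.

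Estimated counts were rounded to whole numbers. Rows with at least 10 counts in at least 5 mice of a fit were tested with the quasi-likelihood test of edgeR 4.0.16 (R 4.3.3) with TMM factors, using the 10 mice of a comparison, or all 20 for the interaction, and p-values were Benjamini-Hochberg adjusted over all genes tested (threshold 0.05). CPM used TMM factors over all 20 mice, so quotients of mean CPM can differ slightly from fitted fold changes. Exact 2-sided permutation tests used log2 CPM with a prior count of 2. Levels between genes were divided by the union of annotated exons (GENCODE vM39). The authors counted against a different transcriptome release, so the lengths, overlaps and shared words given here may differ from those behind the counts. The alternatives were DESeq2 1.42.0, limma-voom (limma 3.58.1), edgeR's RLE factors, total counts, other filters, a replicate block, 1 fit of all mice and omission of each mouse. The test scripts were checked on simulated counts.

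The members, the pathway lists and the marker lists were chosen with earlier results of these data known. Quotients of members over marker sums were added after their values were seen. In each pathway list up to 3 genes with the largest change under MOV with vehicle were named, and for D + Q every listed gene with an unadjusted p under 0.05, with Fmod and Dcn named throughout. A gene that this rule names among the SMAD2/3 targets is not reported here. Gdf3 and the feedback inhibitors among the SMAD2/3 targets were named after their values were seen. P-values set each difference against the spread among these mice. Same-numbered mice were not paired. Of 40 within-group pairs, the least different still varied 6.54 times more than counting error, so none agreed within sampling noise. The columns of the table all belonged to these samples. The pathway genes Inhbc, Inhbe, Fstl4 and Fstl5 were not analysed here, and Nodal, Gdf1, Tll2, Grem1, Tdgf1 and Acvr1c did not pass the count filter in any comparison. Counts of pathway genes over those that also pass it in sham mice alone were added after the data were seen.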

Additional observations from a re-analysis of the deposited data

Results flagged for a closer look

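In 3 of 40 groups of 5 values (10 members in 4 groups), 1 mouse lay further from the rest than Dixon's 95% limit of 0.71, where chance would give about 2. Gdf11 was at 5.29 CPM in vehicle sham mouse 2, against 15.3 to 19.0 CPM in the other vehicle sham mice. Fstl3 was at 2.32 CPM in D + Q MOV mouse 1, the lowest of that group. Fstl1 was at 119 CPM in D + Q sham mouse 2, which also had the highest fibroblast marker sum of the sham mice, 974 CPM. The part of these markers in the Fstl1 value was not tested.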

How the results depend on the processing

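Of the members' fold changes under all alternatives, 297 of those past the threshold stayed past it in the same direction and 7 did not, and of those not past it 634 stayed so, 42 changed sign and 4 passed. Counts of genes changed by D + Q were the least stable. In MOV muscle 0 genes passed with edgeR, 11 with DESeq2, 2 with a replicate block and 0 to 2 when each mouse was omitted. In sham muscle 30 passed, against 133 with DESeq2, 49 with total counts, 67 with no filter, 19 with a replicate block, 19 with all 20 mice in 1 fit, and 2 to 74 when each mouse was omitted, the highest without vehicle sham mouse 5. It was 2 without D + Q sham mouse 3 or 5, 3 without vehicle sham mouse 1, 2 or 3, 12 without D + Q sham mouse 2 and 15 without vehicle sham mouse 4. For the interaction 2 genes passed, 1 with a replicate block and 2 to 3 when each mouse was omitted. The causes were not tested.

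The replicate numbers did not pair the mice: deviations of same-numbered mice correlated between -0.15 and 0.185, above 0.1 in 2 of 20 pairs, and 3 mice correlated best with their own number. With the replicate block Acvr2b under MOV with D + Q no longer passed (log2 fold change -0.88, edgeR adjusted p = 0.0715). Gdf11 under MOV with D + Q did not pass with all 20 mice in 1 fit (0.26, adjusted p = 0.325).

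Values near 0 changed sign. With total counts Acvr1b for D + Q in MOV was 0.023 (0.025 as a difference in mean log2 CPM), Acvr1b in sham 0.030 and Fstl3 in sham 0.024. With all 20 mice in 1 fit Fstl3 in sham was 0.0043 and Acvr1b in sham 0.0028, and with limma-voom the Acvr1b interaction was 0.011. When each mouse was omitted, log2 fold changes for D + Q in sham ran from -0.11 to 0.072 (Acvr1b), -0.16 to 0.018 (Acvr2b), -0.020 to 0.28 (Fst), -0.12 to 0.11 (Fstl3) and -0.11 to 0.21 (Gdf11), and in MOV from -0.0030 to 0.16 (Fstl3). Interactions ran from -0.11 to 0.076 (Acvr1b), -0.12 to 0.20 (Fst), -0.044 to 0.19 (Fstl3), -0.12 to 0.074 (Mstn) and -0.12 to 0.034 (Fmod). Gdf11 under MOV with vehicle ran from -0.062 to 0.26. As differences in mean log2 CPM the ranges were -0.092 to 0.076 (Acvr1b, sham), -0.064 to 0.0079 (Acvr1b, MOV), -0.16 to 0.038 (Acvr2b, sham), -0.028 to 0.24 (Fst, sham), -0.15 to 0.12 (Fstl3, sham), -0.0037 to 0.17 (Fstl3, MOV), -0.11 to 0.34 (Gdf11, sham) and -0.083 to 0.37 (Gdf11 under MOV with vehicle). Depth was low for Inhba and Inhbb, with 9 to 35 and 15 to 41 counts per vehicle sham library.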
